A study of Macaca mulatta with 2 samples.

Results

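The 10 genes examined here encode the enzymes that make and break down endocannabinoids and related monoacylglycerols, together with both cannabinoid receptors. They were taken from the deposited expression table by symbol, as *DAGLA*, *DAGLB*, *MGLL*, *ABHD6*, *ABHD12*, *NAPEPLD*, *FAAH*, *NAAA*, *CNR1* and *CNR2*. The rule used the symbols and no expression value. All 10 symbols were among the 16684 genes of the table. Total RNA of wild-type, untreated macaque (*Macaca mulatta*) optic nerves was sequenced in bulk, as 1 condition with 2 libraries, called Rep1 and Rep2 as in the table. The methods of the study name 1 male animal, 12 years old, whose nerves were obtained after death. The design text given with the data speaks of different macaques, so the libraries may be replicate nerves of 1 animal or of 2. Levels are in TPM, the share of a gene in all length-corrected reads of its library as calculated by the authors, so that genes can be set side by side. With 1 condition there was no comparison of treatments and no test, and the SD between libraries is the only measure of error. In bulk RNA, fewer cells of a type and less RNA per cell cannot be told apart.

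Endocannabinoids are lipids that cells make on demand from their membranes. Diacylglycerol lipases release 2-arachidonoylglycerol (2-AG) from diacylglycerol, and monoacylglycerol lipase and the α/β-hydrolases ABHD6 and ABHD12 split 2-AG into arachidonic acid and glycerol. Arachidonic acid is also the precursor of prostaglandins and lipoxins, so in nervous tissue the hydrolysis of 2-AG is one source of substrate for these pathways. Anandamide and its relatives, the N-acylethanolamines, are released from membrane phospholipids by N-acyl phosphatidylethanolamine phospholipase D and are broken down by fatty acid amide hydrolase and by a lysosomal acid amidase. Both kinds of lipid act on the G protein-coupled receptors CB1 and CB2, of which CB1 is best known from neurons and CB2 from immune cells.

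By mean TPM, transcripts of 2-AG hydrolysis were the most abundant of these genes. Those of the receptors and of the row with the symbol *FAAH* were at or near 0. *ABHD12* stood at 106 ± 89.2 TPM (SD, n = 2), which placed it at percentile 89.6 among 14693 genes, those with a value above 0 in either library. *MGLL*, *ABHD6* and *NAAA* followed at 32.9 ± 43.1, 32.7 ± 29.9 and 30.4 ± 36.1 TPM (SD, n = 2), then *NAPEPLD* and *DAGLB* at 8.38 ± 6.06 and 6.72 ± 5.01 TPM. *DAGLA* was at 0.327 ± 0.219 TPM and *CNR1* at 0.269 ± 0.380 TPM (SD, n = 2). *FAAH* was at 0.0317 ± 0.0448 TPM, and *CNR2* was listed at 0 in both libraries. Of the 10 genes, 9 were above 0 in at least 1 library and 7 in both.

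**Figure D1:**
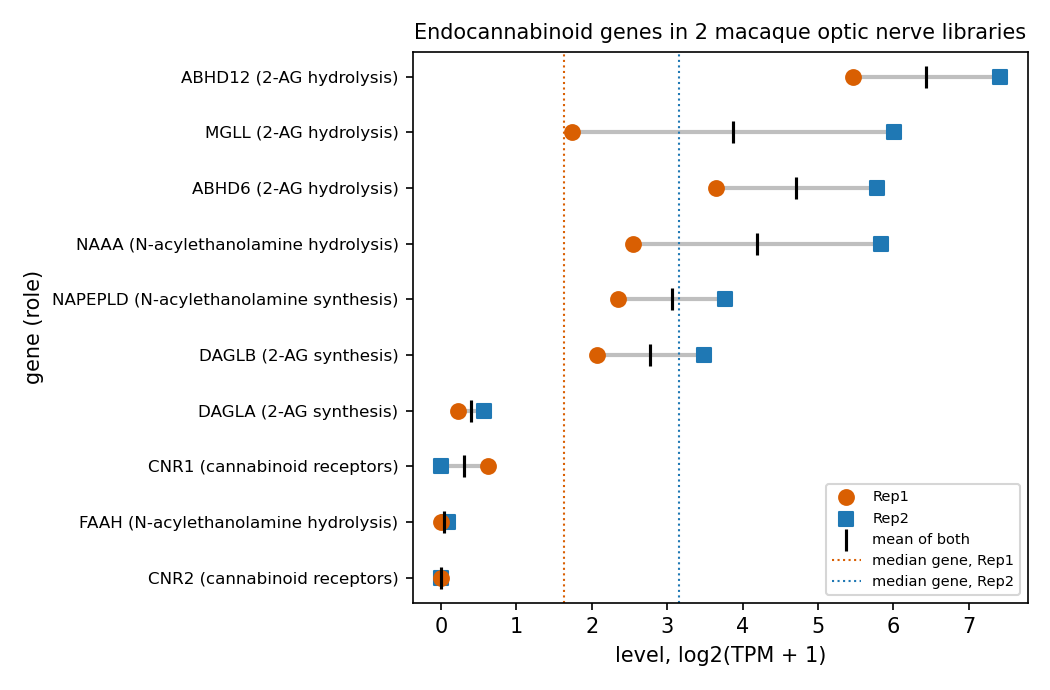
Levels of the 10 genes on the log2(TPM + 1) scale, with a circle for Rep1, a square for Rep2, a black tick for their mean and a grey line for the distance between them. Dotted lines mark the median gene of the table, at 2.09 TPM (Rep1) and 7.93 TPM (Rep2). The 6 upper genes lay to the right of the Rep1 median in both libraries, and the 4 lower genes to the left of both medians.

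Rep1 and Rep2 differed across the whole table, which bears on every value below. Rep1 listed 6425 genes at 0 (38.5%) and Rep2 2082 (12.5%), and a read of Rep1 carried the TPM of 17.2 reads of Rep2. The smallest whole numbers of reads that give the ratio of a gene's values are lower bounds and summed to 720528 in Rep1 and 11519661 in Rep2. Of 30 markers of oligodendrocytes, astrocytes, vascular cells and meningeal fibroblasts, 28 were lower in Rep1. Their median difference was −2.49 on the log2(TPM + 1) scale. Of all 14693 genes above 0, 11146 were lower in Rep1, with a median of −1.07. The tissue label was checked against oligodendrocyte markers, of which all 8 were above 0. They summed to 45999 TPM (Rep1) and 212268 TPM (Rep2), most of it from *MBP* (43721.5 and 199595 TPM). The lowest was *OPALIN*, at 1.40 TPM (Rep1) and 21.3 TPM (Rep2). Markers of photoreceptors and of neurons, whose cell bodies lie outside the nerve, stood higher in Rep1. The 8 photoreceptor genes summed to 3519 TPM (Rep1) and 8.40 TPM (Rep2), and 8 neuron genes summed to 2113 and 48.7 TPM.

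The enzymes of 2-AG synthesis differed widely in level. *DAGLA* encodes diacylglycerol lipase α, the main 2-AG synthase of neurons, and *DAGLB* encodes diacylglycerol lipase β, the main form in macrophages and microglia. *DAGLA* lies on the minus strand of chromosome 14 of Mmul_10, from 12428814 to 12497067, and *DAGLB* on the plus strand of chromosome 3, from 39441661 to 39484016. The proteins coded by the longest coding transcripts in RefSeq have 1043 and 711 residues, and 243 of 644 aligned residues (37.7%) were identical. Like the 2-AG hydrolases, they are serine hydrolases, whose active serine sits in a Gly-X-Ser-X-Gly motif. The coding bases around this motif are shown because it is the feature that both sides of 2-AG turnover share. Each sequence has 45 bases from the RefSeq transcripts of Mmul_10, 5′ to 3′, with the 15 bases that code the motif in capitals.
DAGLA: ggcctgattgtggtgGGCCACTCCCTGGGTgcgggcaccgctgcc
DAGLB: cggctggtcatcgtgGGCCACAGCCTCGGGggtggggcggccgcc
MGLL: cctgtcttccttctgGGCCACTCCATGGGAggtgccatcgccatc
ABHD6: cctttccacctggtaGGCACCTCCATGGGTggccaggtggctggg
ABHD12: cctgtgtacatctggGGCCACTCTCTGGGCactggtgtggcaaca
The motif of *DAGLA* is in exon 14 (chr14:12438787-12438801, minus strand) and covers residues 470 to 474, and that of *DAGLB* is in exon 11 (chr3:39475080-39475094, plus strand) and covers residues 481 to 485. That of *MGLL* spans the junction of exons 4 and 5 (residues 130 to 134, between 148788198 and 148789493 on chromosome 2) and is coded in 2 of its 3 transcripts. Those of *ABHD6* (exon 5, residues 146 to 150, chr2:114424291-114424305) and *ABHD12* (exon 7, residues 244 to 248, chr10:41300011-41300025), both on the plus strand, are coded in all of their transcripts, 2 and 5 in number.

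*DAGLB* was at 3.18 TPM (Rep1) and 10.3 TPM (Rep2), whereas *DAGLA* was at 0.172 TPM (Rep1) and 0.482 TPM (Rep2). *DAGLB* was thus the higher gene in both libraries, by 18.5 times in Rep1 and 21.3 times in Rep2, and it made up 94.9% and 95.5% of the summed TPM of the pair. On the log2(TPM + 1) scale the difference was 1.83 in Rep1, 2.93 in Rep2 and 2.38 on the mean. One library had an SD, estimated from how far Rep1 and Rep2 lay apart in the 200 genes closest in mean level, of 1.38 for this pair, so the difference was 1.72 SDs. The values of *DAGLB* rested on at least 5 reads in Rep1 and 277 in Rep2, and those of *DAGLA* on at least 1 and 48.

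The enzymes of 2-AG hydrolysis were led by *ABHD12*, which encodes a membrane hydrolase that also acts on lysophosphatidylserine and whose loss causes a neurodegenerative disease with retinal and auditory involvement. It lies on chromosome 10 (plus strand, 41226946 to 41315369) and overlaps *PYGB*, which encodes glycogen phosphorylase of brain, on the opposite strand. The use of strand and the handling of reads that overlap both genes are not given in the sources used here. How reads of this overlap were counted is therefore not known. *ABHD12* was at 43.0 TPM (Rep1) and 169 TPM (Rep2), resting on at least 31 and 2095 reads. It was the highest of the 10 genes in both libraries.

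*MGLL* encodes monoacylglycerol lipase, which carries out most 2-AG hydrolysis in brain, and lies on chromosome 2 (plus strand, 148684685 to 148821354), where an uncharacterized gene overlaps it on the same strand. It was at 2.35 TPM (Rep1) and 63.4 TPM (Rep2). Of the 7 genes above 0 in both libraries it had the widest gap, 27.0 times on the TPM scale, although its value in Rep1 is only known to rest on at least 2 reads (at least 927 in Rep2). Its rank within each library also moved, from percentile 44.5 in Rep1 to 82.9 in Rep2, and in Rep1 it was below *NAAA*, *NAPEPLD* and *DAGLB*. *ABHD6*, on the same chromosome (plus strand, 114390571 to 114445659), encodes a hydrolase of the inner membrane leaflet. It was at 11.6 TPM (Rep1) and 53.9 TPM (Rep2), which were percentiles 66.6 and 80.2 and rested on at least 1 and 80 reads.

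The order of the 2-AG hydrolases was therefore shared by the libraries only in part. *ABHD12* exceeded *ABHD6* by 3.72 times in Rep1 and 3.14 times in Rep2. On the log2(TPM + 1) scale that difference was 1.81 and 1.63, and its mean of 1.72 was 1.02 SDs of a single library. *ABHD12* exceeded *MGLL* by 18.3 times in Rep1 and 2.67 times in Rep2, with a mean log2 difference of 2.56, or 1.55 SDs. *MGLL* was below *ABHD6* in Rep1, by a log2 difference of −1.91, and above it in Rep2, by 0.23. Their order was not resolved, since the mean difference of −0.84 was within 1 SD, and the mean TPM of the pair differed in the opposite direction.

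**Figure D2:**
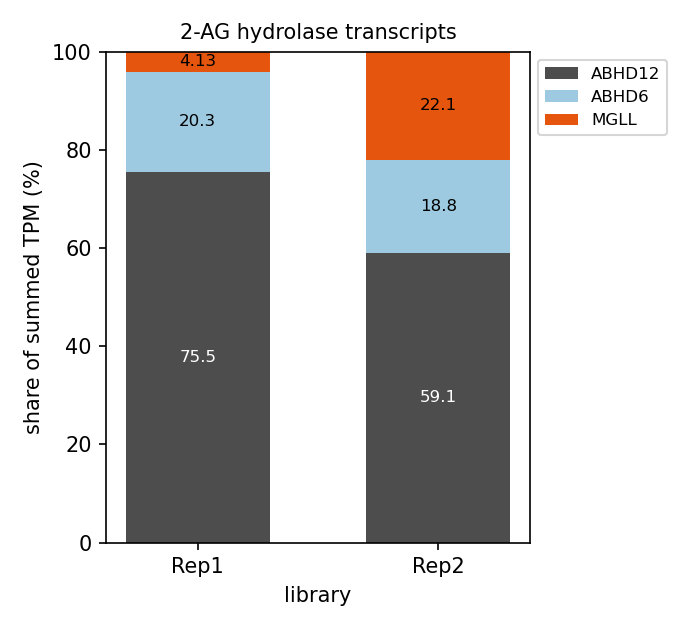
Share of each 2-AG hydrolase in the summed TPM of *ABHD12*, *ABHD6* and *MGLL* (percent, 1 stacked bar per library). *ABHD12* made up 75.5% in Rep1 and 59.1% in Rep2, *ABHD6* 20.3% and 18.8%, and *MGLL* 4.13% and 22.1%.

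The share of *ABHD6* among the hydrolase transcripts was close in both libraries, and the share of *MGLL* was not, as the stacked bars of shares show. The 3 genes summed to 56.9 TPM (Rep1) and 286 TPM (Rep2). These sums were 17.0 times those of the diacylglycerol lipases in Rep1, which were 3.36 TPM, and 26.7 times those in Rep2, which were 10.7 TPM. A ratio of transcripts is not a ratio of enzyme activities, and none was measured here.

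N-acylethanolamine synthesis was represented by *NAPEPLD*, whose product releases anandamide and related amides from their phospholipid precursors. The gene lies on chromosome 3 (minus strand, 129515233 to 129564309), where LOC106997591 overlaps it on the same strand. It was at 4.10 TPM (Rep1) and 12.7 TPM (Rep2), resting on at least 9 and 478 reads. Its rank was nearly the same in both libraries, at percentiles 52.1 and 51.7. *DAGLB* held its rank as well, at percentiles 48.5 and 47.8. *NAPEPLD* was above *DAGLB* by a log2 difference of 0.29 in Rep1 and 0.28 in Rep2, which was 0.158 SDs, so that these synthesis genes did not differ beyond their spread.

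*NAAA*, which encodes the lysosomal acid amidase that prefers palmitoylethanolamide, lies on chromosome 5 (plus strand, 57777657 to 57803028). It was at 4.86 TPM (Rep1) and 55.9 TPM (Rep2), resting on at least 1 and 198 reads. Next to *NAPEPLD* it was 1.18 times as high in Rep1 and 4.42 times as high in Rep2. The mean log2 difference from *NAPEPLD* was 1.13, or 0.668 SDs, and that from *ABHD6* was 0.52, or 0.310 SDs. *NAAA* therefore did not stand apart from its neighbours in the order.

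*FAAH*, the symbol of fatty acid amide hydrolase, was listed at 0 in Rep1 and at 0.0633 TPM in Rep2. Among the 200 genes nearest to it in Rep2 level, 88.5% were also listed at 0 in Rep1, so the value in Rep1 does not show absence. The mean log2 difference of *FAAH* from *NAAA* was −4.15, which was −3.44 SDs of a single library, and *MGLL* exceeded *FAAH* by 3.83, or 3.32 SDs. These are distances from the row with the symbol *FAAH*, and which gene model it counted is not known. In RefSeq that symbol is on a model whose protein is shorter than the full-length enzyme and only partly like it in sequence, as follows.

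In the RefSeq annotation of Mmul_10 the symbol *FAAH* is attached to a model on chromosome 1 (minus strand, 177959595 to 177972629) with 8 exons, of which 5 are coding, and a protein of 249 residues. A separate model on the same strand, LOC708660, lies 15321 bases away (177987951 to 178007916). It carries the product name fatty-acid amide hydrolase 1 and has 15 coding exons and 579 residues. No symbol of this kind, starting with LOC, was among the genes of the table, and LOC708660 was not analysed here. The transcripts of both models had 495 identical bases among 707 aligned (70.0%), and the proteins 108 identical residues among 242 aligned (44.6%). None of the 2043 stretches of 50 bases of LOC708660 occurred in *FAAH* (0 of 2043).

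The sequences below are shown because they are where both models code the amidase signature of this enzyme family. Each has 123 bases, 5′ to 3′, with the 18 bases that code its glycine- and serine-rich core in capitals.
FAAH: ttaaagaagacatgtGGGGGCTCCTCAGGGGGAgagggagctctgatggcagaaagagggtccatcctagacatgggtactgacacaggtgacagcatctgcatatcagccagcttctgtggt
LOC708660: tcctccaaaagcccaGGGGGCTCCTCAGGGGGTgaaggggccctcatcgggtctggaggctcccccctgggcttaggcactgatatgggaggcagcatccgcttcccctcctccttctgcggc
The capitals lie at 177967616 to 177967633 in exon 4 of *FAAH* (residues 179 to 184) and at 177995741 to 177995758 in exon 5 of LOC708660 (residues 215 to 220). Which model the annotation used by the authors counted under the symbol is not given in the sources used here. The level printed for *FAAH* is therefore that of the row with this symbol and may leave out the full-length enzyme.

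**Figure D3:**
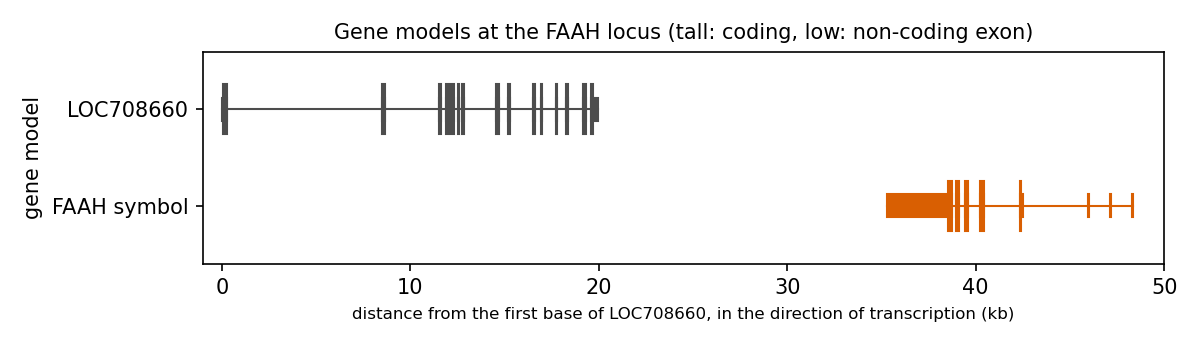
Gene models at the *FAAH* locus, with tall boxes for coding parts of exons, low boxes for non-coding parts and a line for introns, against distance in kb from the first base of LOC708660 in the direction of transcription. LOC708660 has 15 coding exons. The model with the symbol *FAAH* lies downstream of it, with 5 coding exons and a long non-coding stretch at its 5′ end.

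The cannabinoid receptors were, with *FAAH*, the lowest genes by mean TPM as deposited. *CNR1* was above *DAGLA* in Rep1 and, with median-of-ratios scaling, also in mean TPM (0.406 and 0.290 TPM), so their order was not resolved. *CNR1*, which encodes CB1, was at 0.538 TPM in Rep1 and listed at 0 in Rep2, and it was the only one of the 10 genes that was higher in Rep1. Of the 200 genes nearest to it in Rep1 level, 4.5% were listed at 0 in Rep2. Because of the difference in depth, an equal level in Rep2 would have rested on at least 17.2 reads. Some neuron and photoreceptor markers were also higher in Rep1. On the log2(TPM + 1) scale, 4 of the 7 neuron markers above 0 were at least 2-fold higher in Rep1. None was lower by that much on this scale, with *NEFM* nearest at −0.99. *SNAP25* was at 1122 TPM (Rep1) and 4.99 TPM (Rep2), *SYT1* at 769 and 11.8 TPM and *GAD1* at 189 and 1.35 TPM, whereas *SLC17A6* was listed at 0 in both. The other 3 were lower in Rep1, with 7.48 TPM against 15.9 TPM for *NEFM*, 3.63 against 3.65 TPM for *NEFL* and 1.64 against 1.87 TPM for *RBFOX3*. Of the 8 photoreceptor markers, 5 were at least 2-fold higher in Rep1 on the log2(TPM + 1) scale. Of all genes above 0, 14.8% were higher by this much. Their part in the value of *CNR1* was not tested.

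The model of *CNR1* in Mmul_10 holds only coding sequence. It lies on chromosome 4 (plus strand, 85188814 to 85190232), has 1 exon of 1419 bases, and all 1419 are coding. The ends of the transcript are shown because they show that the model begins at its start codon and ends at its stop codon, each in capitals, in 30 bases 5′ to 3′.
CNR1, first bases: ATGaagtcgatcctagatggccttgcagat
CNR1, last bases: tccacagacacgtctgccgaggctctgTGA
If the authors counted over this model, reads from non-coding parts of the transcript did not enter the level.

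*CNR2*, which encodes CB2, lies on chromosome 1 (plus strand, 200838871 to 200884971) and was listed at 0 in both libraries. LOC719180 and LOC114675460 overlap it, the latter on the opposite strand. No symbol starting with LOC was among the genes of the table, and how reads of these overlaps were counted is not known. The value of 0 by itself does not show absence. Its protein shares 159 of 351 aligned residues (45.3%) with that of *CNR1*. All 8 markers of microglia and macrophages, the cells best known for CB2, were above 0 in Rep2. They summed to 197 TPM (Rep1) and 366 TPM (Rep2). Most of the sum in Rep1 came from *AIF1* (113 TPM) and *CSF1R* (61.3 TPM). The difference between *CNR1* and *CNR2* was 0.62 in Rep1 and 0 in Rep2 on the log2(TPM + 1) scale, with a mean of 0.31, or 1.01 SDs. It rests on Rep1 alone.

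In the order of mean TPM, 2 of the 9 steps between neighbours were larger than the SD of a single library. These were the step from *ABHD12* down to *MGLL* and the step from *DAGLB* down to *DAGLA*. These steps do not divide the genes into groups, because the order was by mean TPM and the steps were on the log2(TPM + 1) scale. On that scale *MGLL* lay below *ABHD6* (−0.84), and *ABHD12* exceeded *ABHD6* by 1.72, or 1.02 SDs. At the lower end the steps were small in size, with 0.09 from *DAGLA* to *CNR1*, 0.27 from *CNR1* to *FAAH* and 0.04 from *FAAH* to *CNR2* on the log2(TPM + 1) scale. They were 0.178, 0.862 and 0.854 SDs. The last 2 exceeded 1 SD (1.80 and 3.83 SDs) when the SD was centred on the mean difference of the closest genes. Of the genes nearest to *FAAH* in Rep2 level, 88.5% were listed at 0 in Rep1. Genes at 0 in the same library with like means have like differences, so the centred SD is small there whatever the noise. The centred SD therefore cannot settle the order of the lowest genes.

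Of the 9 genes above 0, 8 were lower in Rep1. At least 2-fold lower on the log2(TPM + 1) scale were 6, namely *MGLL* (−4.26), *NAAA* (−3.28), *ABHD6* (−2.13), *ABHD12* (−1.95), *DAGLB* (−1.43) and *NAPEPLD* (−1.42). Of all 14693 genes above 0, 51.3% were lower in Rep1 by this much, so a lower value in Rep1 was common in the table and not particular to these genes. At least 2-fold higher in Rep1 were 0 of the 9 genes, against 14.8% of all genes. Their median difference was −1.43, and that of all genes was −1.07. Scaling by the median of ratios, which corrects a shift of −1.19 of Rep1 against Rep2, left *MGLL* (−3.24) and *NAAA* (−2.19) at least 2-fold lower and no other of these genes. That is 2 of 9, beside 33.8% of all genes after the same scaling. After it, *ABHD6* was at −0.99, *ABHD12* at −0.78, *DAGLB* at −0.42 and *NAPEPLD* at −0.38.

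**Figure D4:**
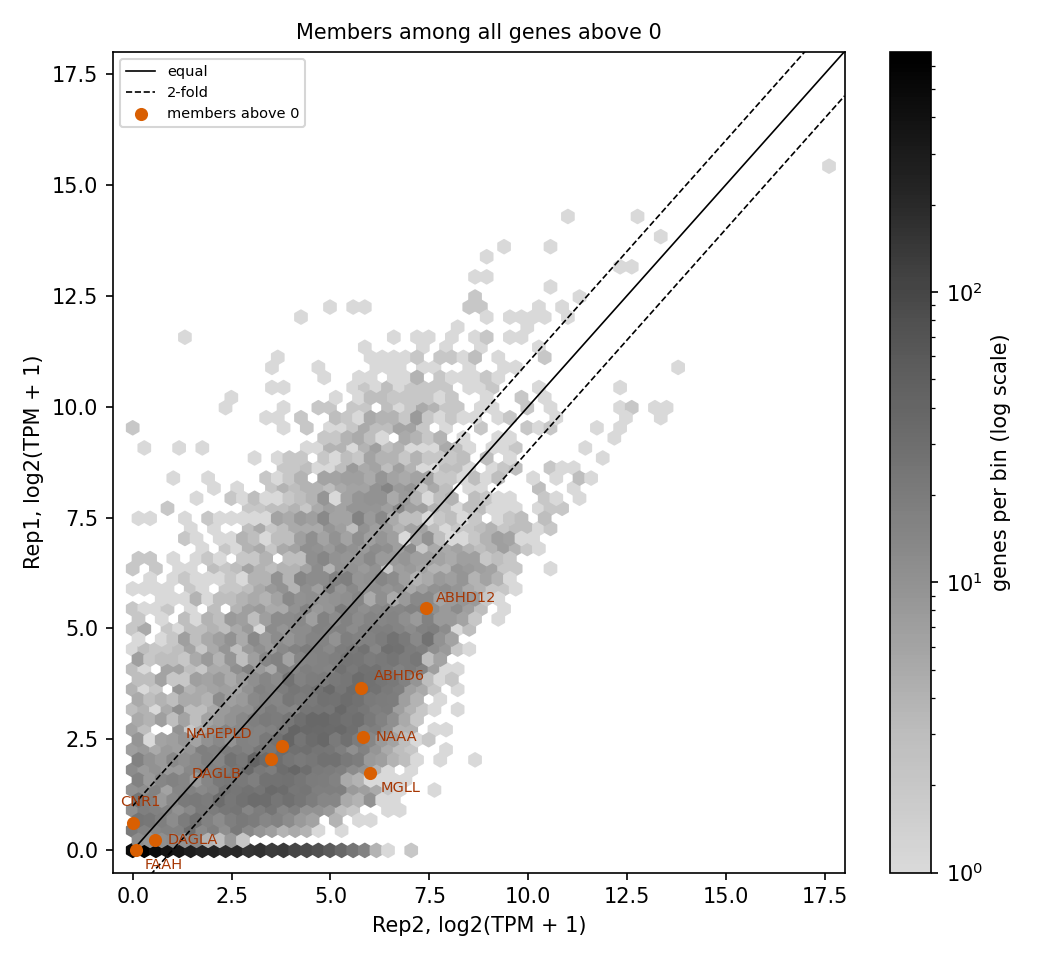
Level in Rep1 against level in Rep2, both as log2(TPM + 1), for all 14693 genes above 0, shaded by the number of genes per bin, with the 9 genes above 0 as orange points. The solid line marks equal levels and the dashed lines a 2-fold difference. *MGLL* and *NAAA* lay farthest below the lines and *CNR1* lay on the left edge, at 0 in Rep2.

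The other genes of the pathway did not follow a single direction. Of 37 further genes, 32 were in the table and 27 were above 0. On the log2(TPM + 1) scale, 12 were at least 2-fold lower in Rep1 and 4 at least 2-fold higher. The median difference was −0.53. Of all genes above 0, 51.3% were lower and 14.8% higher by this much, so genes in both directions were not particular to the pathway. Listed at 0 in both libraries were 5 genes, namely *GPR119* and *TRPV1*, which encode receptors for N-acylethanolamines, *PTPN22* and *PLA2G4E* of other synthesis routes, and *MOGAT3* of monoacylglycerol acylation.

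The list of 3 lipid carriers and a receptor partner had the lowest median difference of the 5 further lists, −2.80. All 4 were at least 2-fold lower in Rep1, beside 51.3% of all genes. *FABP3* was at 4.50 TPM (Rep1) and 65.1 TPM (Rep2), *FABP5* at 2.46 and 23.4 TPM, and *FABP7* at 4.44 and 19.0 TPM. They encode fatty acid-binding proteins, of which FABP5 and FABP7 carry anandamide inside cells. *CNRIP1*, which encodes a protein that binds the tail of CB1, was at 4.27 TPM (Rep1) and 35.4 TPM (Rep2), although *CNR1* itself was listed at 0 in Rep2. Of 6 other receptors, *PPARA*, a nuclear receptor for palmitoylethanolamide, was listed at 0 in Rep1 and was at 37.5 TPM in Rep2. *PPARG* was close in both libraries, at 2.32 and 2.73 TPM, and *GPR55* and *GPR18* were at 0 in Rep1 and at 0.114 and 0.441 TPM in Rep2.

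Routes to N-acylethanolamines other than *NAPEPLD* were led by *ABHD4*, whose product removes the acyl chains of the phospholipid precursor. It was at 102 TPM (Rep1) and 90.0 TPM (Rep2), above *NAPEPLD* in both. *GDE1*, which encodes the phosphodiesterase that follows in this route, was at 8.55 and 29.0 TPM. *FAAH2*, which encodes a further fatty acid amide hydrolase, was listed at 0 in Rep1 and was at 2.63 TPM in Rep2, above *FAAH* there. *INPP5D*, which encodes a phosphatase known from immune cells and assigned to a phospholipase C route, was higher in Rep1, at 77.3 TPM against 8.85 TPM, a difference of 2.99.

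Of the 6 phospholipases C that form the diacylglycerol used by *DAGLA* and *DAGLB*, all were above 0 in both libraries. *PLCB4* (35.4 TPM (Rep1) and 9.94 TPM (Rep2)) and *PLCG1* (38.2 and 12.7 TPM) were at least 2-fold higher in Rep1. *PLCB1* was lower there, at 5.06 against 32.5 TPM, and the median difference of the list was 0.35. Among 9 other enzymes of monoacylglycerols and diacylglycerols, *ABHD16A*, which encodes a phosphatidylserine lipase, was the highest, at 171 TPM (Rep1) and 78.1 TPM (Rep2). *PNPLA2* and *LIPE*, the lipases of stored triacylglycerol and diacylglycerol, were lower in Rep1, at 2.04 against 29.7 TPM and 1.22 against 13.9 TPM. *AGK*, a kinase of monoacylglycerol and diacylglycerol, was at 32.2 and 31.1 TPM, and *DDHD2* at 29.8 and 49.1 TPM.

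**Figure D5:**
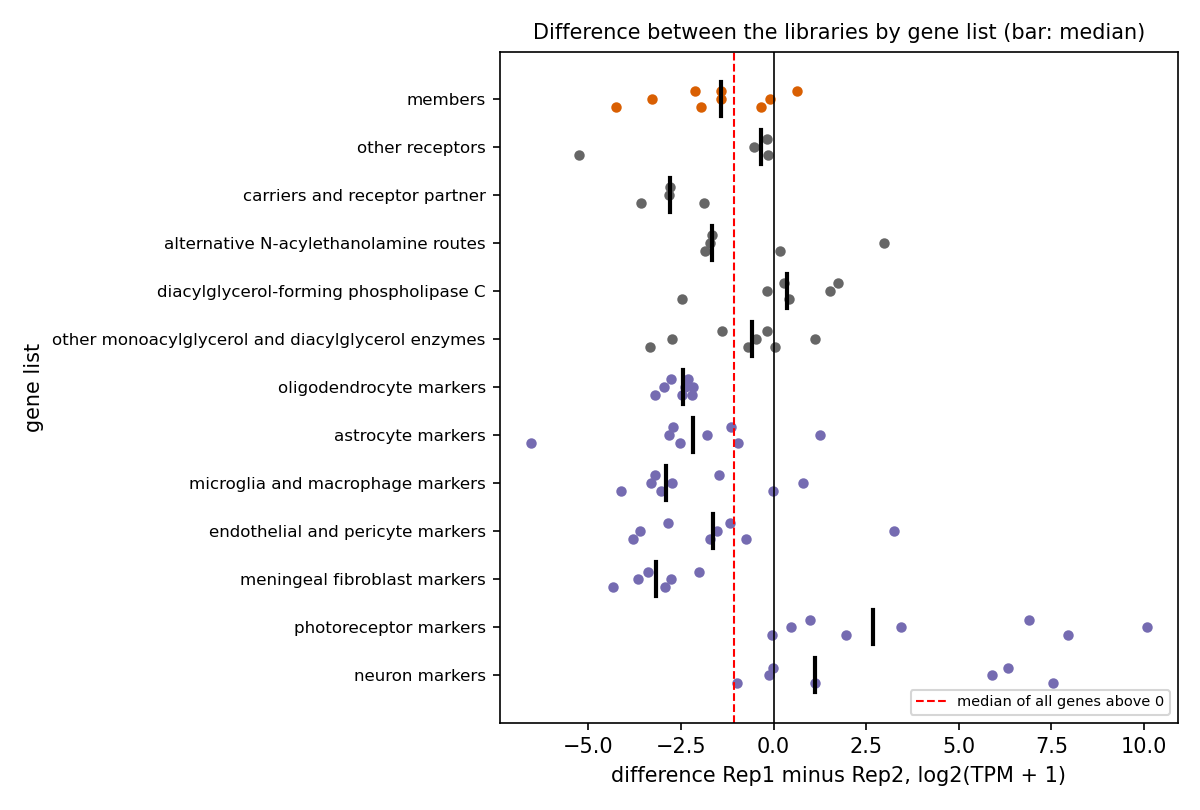
Difference between the libraries (Rep1 minus Rep2, log2(TPM + 1)) of each gene above 0, by list, with the 10 chosen genes in orange, further pathway lists in grey and marker lists in purple, and a black bar at the median of each list. The dashed red line is the median of all genes, −1.07, and the chosen genes had a median of −1.43. Lists of nerve cells lay to the left, from −3.16 to −1.63, and photoreceptors (2.69) and neurons (1.12) to the right.

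Marker lists of the cells that the nerve could hold stood beside these differences. Oligodendrocyte markers had a median difference of −2.43, astrocyte markers of −2.17 and microglia or macrophage markers of −2.89. The median was −1.63 in the vascular list (endothelial cells and pericytes) and −3.16 in the list of meningeal fibroblasts. At least 2-fold lower in Rep1 were 8 of 8 oligodendrocyte markers, 6 of 8 in each of the astrocyte, microglia and vascular lists, and 6 of 6 fibroblast markers. Of all genes above 0, 51.3% were lower by this much. Their sums in Rep1 and Rep2 were 1148 and 7342 TPM for astrocytes, 101 and 329 TPM for vascular cells and 1618 and 15164 TPM for fibroblasts. The defining markers *TMEM119* of microglia and *VWF* of endothelial cells were listed at 0 in Rep1. *SOX9* of astrocytes and *KCNJ8* of pericytes went the other way and were at least 2-fold higher in Rep1. The differences of these marker genes ran from −6.55 in *AQP4* to 3.26 in *KCNJ8*. That range is too wide for lying within it to say anything about *MGLL*, *NAAA* or *ABHD6*. The part of cell make-up in the differences of *MGLL*, *NAAA* and *ABHD6* was not tested.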

How the data were processed

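The authors isolated total RNA, amplified cDNA for the libraries with a SMARTer v4 low-input kit, and used a NovaSeq S4 flow cell for sequencing. They used FastQC 0.11.9, Trim Galore 0.6.6, STAR 2.7.1a with Mmul_10 and RefGene annotation, and featureCounts 1.5.3, and calculated TPM in R 4.2.0. The deposited values are these TPM, not pooled, in 2 columns that nothing pairs with sample titles. Each sums to 1000000, so the table does not give depth. Gene lengths, strand use and the handling of reads with several alignments are not given in the sources used here. A transcript with a large share of a library lowers all other TPM in it.

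Python 3.11.15, numpy 2.4.6, pandas 2.3.3, Biopython 1.88 and matplotlib 3.10.9 were used. Differences were taken as log2(TPM + 1), which understates changes of low genes. The single-library SD came from the 200 genes nearest in mean level, about 0, so it includes the shift between libraries. The SD of a pair is the root mean square of the values of both genes. Read numbers are lower bounds from ratios of TPM (99.9% whole, tolerance 1e-11). No p-value, interval or detection limit was computed. Gene models and sequences came from RefSeq transcripts of Mmul_10, with the transcript of longest coding sequence. All 10 genes were named. The rule for the pathway lists was to name the highest, the lowest and those at 0; *GDE1*, *AGK*, *DDHD2*, *FABP5*, *LIPE* and other genes of these lists outside it were named after their values were seen. The genes and lists were chosen with earlier results of these data known. *PLAAT1* to *PLAAT5* were not analysed here. The scripts were tested on simulated data. As alternatives, values were scaled by the median of ratios, rescaled without the 10 most abundant genes, restricted to a mean of at least 1 TPM, averaged geometrically, taken from single libraries, given a pseudocount of 0.1, or set against 500 nearest genes.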

Additional observations from a re-analysis of the deposited data

How the results depend on the processing

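No paired analysis was possible because only 1 condition was sequenced. On the log2(TPM + 1) scale, the number of genes at least 2-fold lower in Rep1 was 6 as deposited (51.3% of all genes). It was 2, *MGLL* and *NAAA* (33.8% of all genes), once the median of ratios was used for scaling, as this lifts Rep1 against Rep2. With a pseudocount of 0.1, the log2 difference was 3.87 between *DAGLB* and *DAGLA*, −7.03 between *FAAH* and *NAAA*, 1.34 between *CNR1* and *CNR2* and 6.61 between *MGLL* and *FAAH*, since a smaller pseudocount widens differences of low genes. With single libraries these ran from −5.74 to −2.55 for *FAAH* and *NAAA*, from 0 to 0.62 for *CNR1* and *CNR2* and from 1.74 to 5.92 for *MGLL* and *FAAH*. The other 12 differences between genes under planned settings, and 30 values of mean TPM, moved by less than the spread between libraries. Single libraries, and the geometric means among these 30 values, always lie within the SD of n = 2. For mean TPM they therefore say nothing about stability. An SD centred on the mean difference of the closest genes, added after seeing the data, leaves out the shift between the libraries. With it, 4 steps of the order instead of 2 exceeded 1 SD. The further ones were *CNR1* to *FAAH* (1.80 SDs) and *FAAH* to *CNR2* (3.83 SDs), and *CNR1* and *CNR2* lay 2.09 SDs apart. Near 0 most of the closest genes are at 0 in 1 library and so have like differences. The centred SD is small there for that reason, and these values do not order the lowest genes. Low genes are limited by the depth of Rep1.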
